A study of Mus musculus with 10 samples.

Results

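Lung DNA methylation was compared, gene by gene, between 4 mice given DSE, an ethanol extract of Descurainia sophia seeds, and 3 OVA-induced mice. Methyl-seq measured the share of cytosines left unconverted by bisulfite, in genomic DNA enriched by hybrid capture, and the values were methylated and total cytosine calls in 1000-bp windows that start every 500 bp. The rule took the DSE mice, which carry the label Herb, and the OVA mice, and required 20 or more calls per window in each of the 7 mice, which left 424436 of the 446336 windows in the table. From the windows that do not overlap, methylation was averaged for 17638 promoters, defined as the 1 kb on each side of a RefSeq start site, and for 10239 gene bodies, out of 24746 genes with a curated RefSeq transcript. The whole series holds 10 mice, the other 3 of which received saline and entered neither the tests of DSE against OVA nor the choice of windows, except in 1 alternative fit. Their values are given for reference and define the classes of promoters and windows that were unmethylated in normal lung.

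All mice were 8-week-old BALB/c females. The OVA group was sensitised to ovalbumin by intraperitoneal injection of 50 µg with alum on days 0 and 7, challenged intranasally with 25 µg from day 12 for 4 days, and fed the vehicle of the extract. The DSE group had the same sensitisation and challenge and was fed the extract at 200 mg/kg on days 9 to 15, so that both groups are asthma-model lungs and treatment began before the first challenge. The saline group had neither ovalbumin nor extract. No group given the extract without ovalbumin was analysed here.

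DNA methylation in mammals sits mostly on cytosines followed by guanine, the CpG dinucleotides, and is copied to the daughter strand by Dnmt1 after replication. Promoters that hold dense CpG islands stay unmethylated in nearly all tissues, methylation rises across the flanks of the island, called shores, and the bodies of transcribed genes are usually methylated. Allergic airway inflammation brings eosinophils, lymphocytes and macrophages into the lung, each with its own methylation pattern. Whole lung was measured, so a change in the methylation of a cell type and a change in the share of that cell type cannot be told apart.

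At the 12 promoters named for their rises, Lig4 and Gnpda2 excepted, the larger difference lay in the window with fewer CpGs, and the sequences of Ldah and Bod1 show both kinds of DNA side by side. At Lig4 and Gnpda2 the larger difference was in the window with more CpGs, which holds the start site. Ldah encodes a lipid droplet-associated hydrolase, and Bod1 a protein needed for chromosomes to attach to both spindle poles. For each gene the first line is the 300 bases around the start site and the second is the middle 300 bases of the neighbouring window in which methylation differed. Itgax, which encodes the integrin CD11c of alveolar macrophages and dendritic cells, is shown because it was the only immune-list promoter that fell and has a start site poor in CpGs. CpGs are in capitals. The sequences are those of RefSeq on GRCm38, the reference strain and not BALB/c, with Bod1's start site on the minus strand and the other 4 stretches on the plus strand.
Ldah start site, chr12:8207876-8208175, 23 CpGs: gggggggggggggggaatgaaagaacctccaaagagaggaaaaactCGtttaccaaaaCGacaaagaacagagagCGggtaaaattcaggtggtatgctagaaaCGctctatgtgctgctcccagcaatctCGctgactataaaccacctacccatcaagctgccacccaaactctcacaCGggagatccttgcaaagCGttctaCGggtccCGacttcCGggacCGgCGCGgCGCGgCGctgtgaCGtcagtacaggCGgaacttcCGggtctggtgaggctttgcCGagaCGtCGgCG
Ldah upstream flank, chr12:8207351-8207650, 4 CpGs: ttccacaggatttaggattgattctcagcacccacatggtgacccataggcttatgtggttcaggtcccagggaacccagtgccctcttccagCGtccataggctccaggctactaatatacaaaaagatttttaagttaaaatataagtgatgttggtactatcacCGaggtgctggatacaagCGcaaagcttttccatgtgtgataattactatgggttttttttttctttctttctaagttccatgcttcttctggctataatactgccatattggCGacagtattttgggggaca
Bod1 start site, chr11:31671813-31672112, 24 CpGs: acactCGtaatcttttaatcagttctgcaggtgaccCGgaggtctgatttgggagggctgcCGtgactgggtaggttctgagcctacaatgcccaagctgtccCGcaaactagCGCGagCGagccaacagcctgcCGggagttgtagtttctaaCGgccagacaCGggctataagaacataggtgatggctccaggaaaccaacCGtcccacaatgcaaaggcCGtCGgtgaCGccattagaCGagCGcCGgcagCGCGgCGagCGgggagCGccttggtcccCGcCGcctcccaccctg
Bod1 upstream flank, chr11:31672351-31672650, 5 CpGs: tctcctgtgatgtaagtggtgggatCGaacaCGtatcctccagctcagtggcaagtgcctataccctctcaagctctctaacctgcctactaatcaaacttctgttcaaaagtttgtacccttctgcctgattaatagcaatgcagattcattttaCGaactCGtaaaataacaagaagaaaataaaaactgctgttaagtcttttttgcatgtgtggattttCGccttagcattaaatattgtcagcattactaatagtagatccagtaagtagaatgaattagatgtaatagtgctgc
Itgax start site, chr7:128129300-128129599, 5 CpGs: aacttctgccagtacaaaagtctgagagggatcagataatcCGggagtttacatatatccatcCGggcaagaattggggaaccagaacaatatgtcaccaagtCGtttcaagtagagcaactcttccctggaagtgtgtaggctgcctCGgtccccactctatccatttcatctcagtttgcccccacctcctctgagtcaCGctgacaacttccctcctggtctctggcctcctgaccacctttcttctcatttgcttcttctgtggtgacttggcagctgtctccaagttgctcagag

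The libraries held between 306656737 and 410836272 calls, with a median of 460 calls per window and mouse, at which a methylation of 50% has a 95% Wilson interval of 45.4% to 54.6%. At the minimum of 20 calls that interval runs from 29.9% to 70.1%. Both reflect counting error alone. The DSE and OVA libraries differed in how the calls were spread over the genome. Windows of at least 60% GC had a mean of 18.3, 16.8 and 16.4 calls in the OVA mice, scaled to 1000000 calls a library, against 14.6, 14.1, 13.5 and 15.1 in the DSE mice, and windows under 40% GC had 1.58, 1.73 and 1.76 against 2.70, 2.56, 2.84 and 2.34. The groups did not overlap in either class, and the saline mice lay between them in both.

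Mean promoter methylation was slightly higher in each DSE mouse than in any OVA mouse. The mean over 17638 promoters was 17.2%, 17.7% and 17.9% in the OVA mice and 17.9%, 18.4%, 18.2% and 18.1% in the DSE mice. Group means were 17.6% ± 0.361 (SD, n = 3) and 18.2% ± 0.224 (n = 4), a difference of 0.562 percentage points (exact two-sided permutation test, p = 0.0571, the smallest that the 35 splits of 3 and 4 mice allow). In the saline mice the mean was 17.3%, 17.1% and 17.2%. With all overlapping windows the difference between DSE and OVA was 0.544 points (exact two-sided permutation test, p = 0.114). With 1 mouse left out it ranged from 0.357 points without OVA replicate 1 to 0.697 without OVA replicate 3.

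Gene by gene the difference lay nearly all in 1 direction. In limma fits over the 7 mice on the M scale, log2 of methylated over unmethylated percent, 1110 promoters (6.29%) were higher and 23 (0.13%) lower in DSE at a Benjamini-Hochberg adjusted p under 0.05. In 2761 promoters (15.7%) every DSE mouse was above every OVA mouse, and in 383 (2.17%) every one was below. The median difference over all promoters was 0.289 percentage points. Of the promoters that rose 1046 belonged to protein-coding genes, or 94.2% against 88.3% of all promoters, and because head-to-head genes share windows the 1110 promoters rest on 1017 separate sets of windows. Most of the rises were small. The promoters that rose had medians of 4.21% in OVA and 7.45% in DSE, and a median difference of 3.06 points. Of them 282 rose by at least 5 points and 49 by at least 10. Without OVA replicate 1, DSE replicate 1, DSE replicate 2 or DSE replicate 3 the promoters higher in DSE numbered 562, 701, 736 and 698. The group mean of the saline mice lay between those of OVA and DSE in 970 of the 1110, below both in 125 and above both in 15. Over all 17638 promoters these counts were 5457, 8380 and 3801. The 1110 were chosen for a gap between OVA and DSE, so their counts are given as a description.

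Promoters that are unmethylated in normal lung held most of the rises called, but not the largest shift in points. Of the promoters under 10% in saline lung 873 of 10310 rose (8.47%), and of those between 10% and 30% 221 of 3741 (5.91%). Among promoters between 30% and 70% only 14 of 2588 rose (0.541%), and above 70% 2 of 999 (0.2%). Averaged over the lowest class, methylation was 3.17%, 3.50% and 3.53% in the OVA mice and 3.93%, 4.07%, 4.03% and 3.79% in the DSE mice, again without overlap. From 10% to 30% the OVA mice had 18.6% to 19.9% and the DSE mice 20.05% to 20.9%, also without overlap. In both higher classes the groups overlapped. From the lowest class to the highest the median differences were 0.258, 0.933, 0.0927 and -0.480 points. On the M scale used for the calls, the same difference in points counts for more at low methylation than at intermediate methylation. The X chromosome, on which 1 copy of each promoter is usually methylated in females, had 3 rises among 557 promoters (0.539%), while chromosome 13 had the highest share of promoters that rose (9.45%) and chromosome 7 the lowest of the autosomes (4.49%). RefSeq's promoter table held the 300 bases around the start of 881 of the 1110 genes, and the median CpG number in them was 23, against 20 over all 13592 matched promoters. At least 10 CpGs were present in 93.1% of the former and in 77.7% of all.

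The rise with the smallest p-value was at the start site shared by Mycbp2, an E3 ubiquitin ligase that acts in axon growth, and the divergent transcript Gm34758 (position 103346800 of chromosome 14 for Mycbp2). Methylation there was 5.09%, 4.17% and 3.95% in the OVA mice and 20.8%, 19.6%, 21.97% and 16.6% in the DSE mice. The lowest DSE mouse stood above the highest OVA mouse by a wide margin. The difference was 15.3 percentage points, or 2.19 ± 0.15 (SE) on the M scale (limma adjusted p = 1.76e-04), and the saline mice had 8.72%, 9.57% and 11.9%. In the window over the CpG island the means were 0.843% and 1.11%, and in the upstream window they were 7.96% and 38.3%.

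Ldah (position 8208126 of chromosome 12) had 3.26%, 5.49% and 5.29% in the OVA mice and 27.9%, 22.7%, 22.8% and 17.8% in the DSE mice, a rise of 18.1 points (limma adjusted p = 4.58e-04). The rise sat in the upstream window, whose middle is printed above, at 5.59%, 10.0% and 9.94% in OVA and 54.6%, 44.4%, 44.5% and 34.9% in DSE. In the window with the CpG-dense start site the values were 0.931%, 0.989% and 0.652% against 1.19%, 0.883%, 1.07% and 0.782%, and the groups overlapped. Bod1 (position 31671862 of chromosome 11) showed the same arrangement. Its promoter rose from 4.78%, 3.79% and 3.65% to 15.7%, 20.1%, 16.9% and 14.7% (limma adjusted p = 2.22e-04), with 8.58%, 6.47% and 6.34% against 30.7%, 39.1%, 32.2% and 28.9% in the upstream window and group means of 1.02% and 0.938% over the start site.

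Among the other promoters named for their rises, Abcf1, an ATP-binding protein of translation initiation, had 4.71%, 4.93% and 5.72% in OVA and 13.1%, 13.2%, 14.9% and 14.9% in DSE. Naf1, an assembly factor of the small nucleolar ribonucleoproteins that modify ribosomal RNA, had 0.417%, 2.08% and 0.530% against 9.72%, 8.02%, 10.7% and 10.0%. Both promoters were without overlap between the groups, and the rises were 8.92 and 8.60 points.

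Mad2l1, a checkpoint protein that holds anaphase until chromosomes are attached, had 4.96%, 2.67% and 4.61% in OVA and 15.8%, 16.2%, 15.8% and 13.0% in DSE. Lig4, the ligase that seals double-strand breaks by end joining, had 2.25%, 2.11% and 1.87% and 10.7%, 8.75%, 9.77% and 6.68%. For each gene the 4 DSE mice were above the 3 OVA mice, and the highest saline mouse stood at 8.27% for Mad2l1 and 2.33% for Lig4.

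Immp2l, part of the peptidase that matures proteins of the mitochondrial inner membrane, had 7.64%, 6.97% and 7.31% in OVA and 19.13%, 18.4%, 18.0% and 16.2% in DSE. Gnpda2, which turns glucosamine 6-phosphate into fructose 6-phosphate, had 3.84%, 5.10% and 3.89% and 14.7%, 11.8%, 15.5% and 12.9%. Btbd10, named for its BTB domain, and Fam216a rose from group means of 10.2% ± 0.769 and 2.47% ± 0.331 (SD, n = 3) to 23.1% ± 1.90 and 12.2% ± 3.25 (n = 4). Limma adjusted p-values of these 4 lay between 2.71e-04 and 4.86e-04. All 12 promoters named here as rising, Gm34758 included, kept their call without each of the 7 mice in turn.

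**Figure D1:**
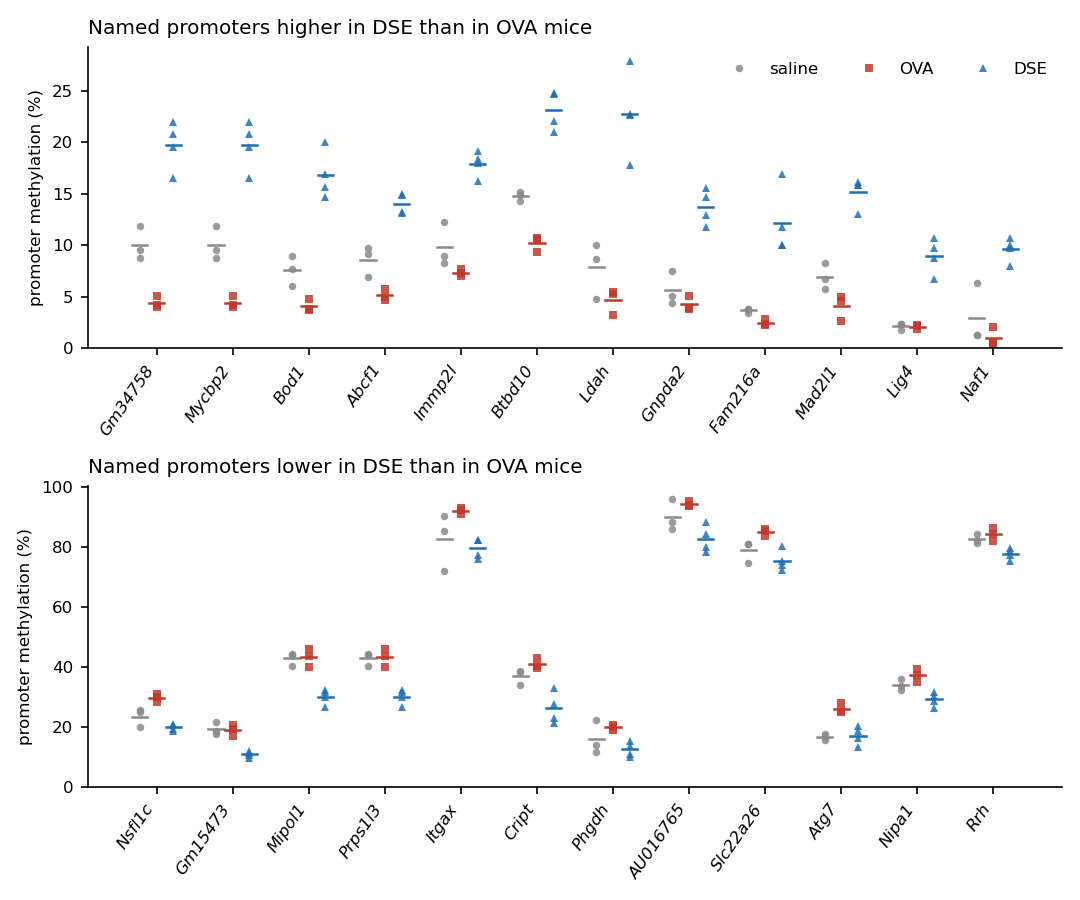
Promoter methylation in percent for each mouse at the promoters named for the clearest rises and falls, with points for saline, OVA and DSE mice. At Ldah the DSE points lie between 17.8% and 27.9% and the OVA points between 3.26% and 5.49%, and in every promoter drawn the DSE and OVA points do not overlap.

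The rise at Ldah and Bod1 lay in the GC-poorer window, and this was the usual arrangement. Of the promoters that rose, 1043 had 2 measured windows. The GC-poorer window of the pair, with a median GC of 46.6% and 27 CpGs, had a median difference of 4.37 points, while the GC-richer window, with 57.2% GC and 61 CpGs, had 0.441. A difference of at least 5 points was seen in 45.6% of the GC-poorer and 12% of the GC-richer windows. In 13159 promoters without a call the medians were 0.253 and 0.116 points. By distance, windows centred 500 bp upstream of the start sites of the promoters that rose differed by 4.16 points, those on the start site by 1.44 and those 500 bp downstream by 1.84. At 1000 bp the differences were 2.65 upstream and 2.42 downstream, and 2000 bp away they were -0.664 and -0.549. These positions use the values that chose the promoters and are given as a description.

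**Figure D2:**
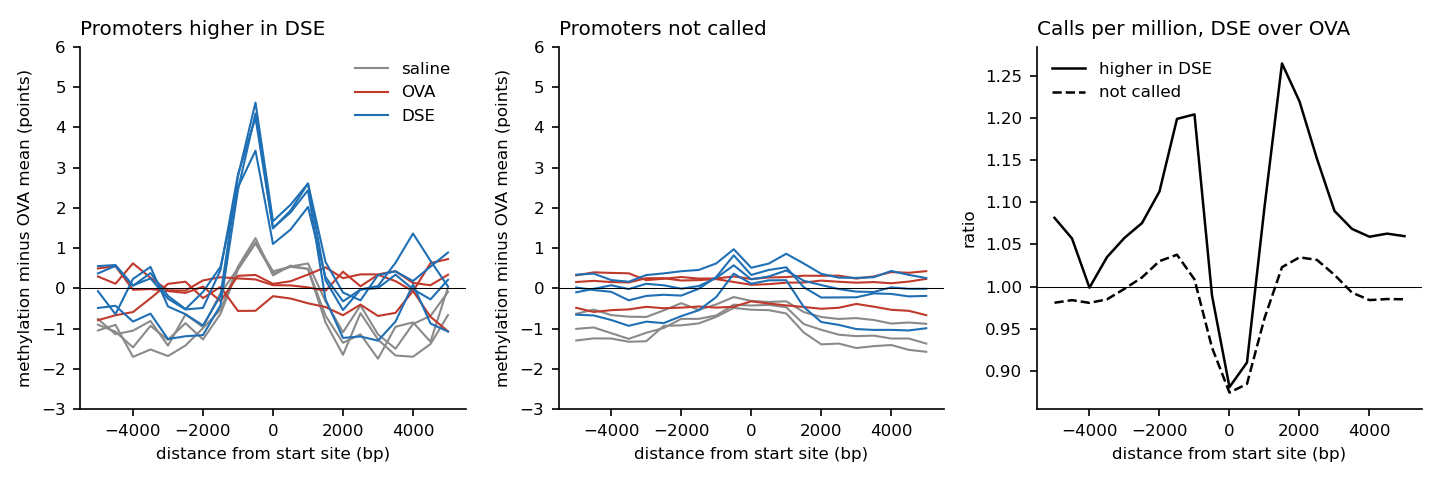
Mean methylation minus the mean of the OVA mice, in percentage points, by distance from the start site in bp. Promoters that rose and promoters without a call have a panel each, with a line for each mouse, coloured by group. The last panel gives the ratio of DSE to OVA in calls scaled to 1000000 a library. For the promoters that rose the difference between the group means peaks at 4.16 points 500 bp upstream and is 1.44 on the start site.

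Windows unmethylated in the saline mice, which entered neither the comparison nor its calls, were also split by what lay beside them. Among windows under 5% methylation in saline lung, 5658 bordered a window of at least 30%. Their mean was 2.04%, 2.26% and 2.27% in the OVA mice and 2.56%, 2.63%, 2.62% and 2.39% in the DSE mice, with all DSE mice above all OVA mice, a difference of 0.356 points (exact two-sided permutation test, p = 0.0571). In 2027 windows surrounded by other unmethylated windows the difference was 0.0690 points (p = 0.286 in the same exact test), and in 4095 windows with neighbours between these classes 0.129 points (p = 0.171). In 12961 windows, the largest class, a neighbour was missing from the table, and the difference was 0.388 points (p = 0.0571 in the exact test), no smaller than at the edges. Limma called 155 of the edge windows higher (2.74%) and 0 lower, 11 of the inner windows higher (0.543%) and 0 lower, 27 (0.659%) and 3 of those between, and 361 (2.79%) and 13 of those with a missing neighbour. The difference between the classes was itself not tested.

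The relative depth of the libraries also differed at the promoters, whether or not they rose. Across promoters that rose, the GC-poorer window drew 1.05 times as large a share of the calls in DSE as in OVA, and the GC-richer window 0.894 times. In the 13159 promoters without a call the ratios were 0.962 and 0.867. In 20 promoters that fell they were 1.64 and 0.845. Promoters that drew no smaller share of the calls in DSE rose in 365 of 3950 cases (9.24%), those that drew a smaller share in 745 of 13688 (5.44%), and those whose share fell by over 0.3 on the log2 scale in 63 of 1876 (3.36%). The depth of windows of at least 60% GC over that of windows of 40% to 50% was 5.93, 5.21 and 4.995 in the OVA mice and 4.13, 3.96, 3.72 and 4.35 in the DSE mice, without overlap. With this ratio as a covariate, an alternative chosen after seeing the data, limma called 0 promoters, with 1051 at an unadjusted p under 0.05, against 3363 without it. The covariate and the treatment cannot be told apart in these mice. Mitochondrial DNA, which carries little CpG methylation, read as methylated in 1.57%, 1.51% and 1.85% of calls in the OVA mice and in 1.45%, 1.38%, 1.39% and 1.33% in the DSE mice, and the groups did not overlap there either, with DSE the lower. The part of library composition in the rises was not tested further.

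**Figure D3:**
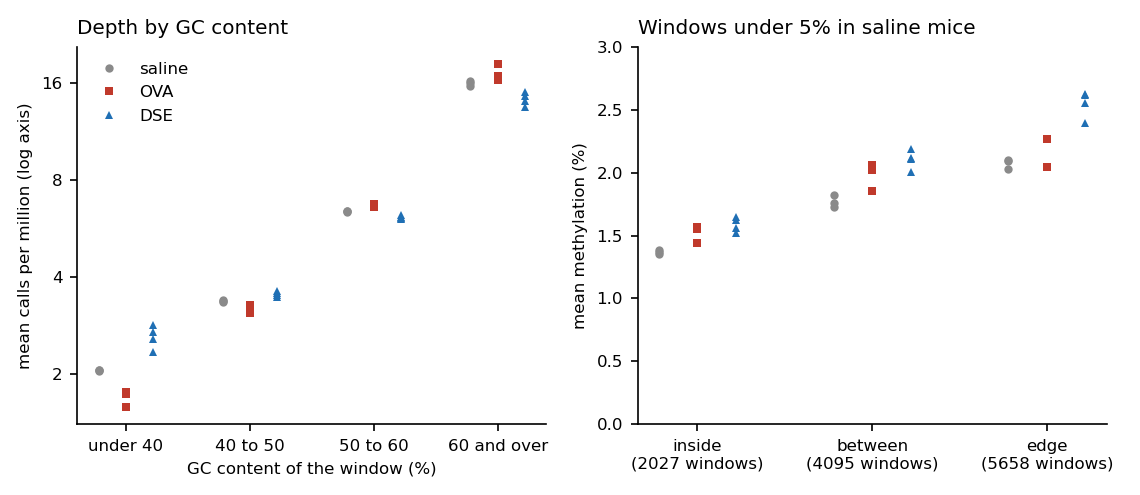
Mean calls per window, scaled to 1000000 calls a library, by the GC percent of the window for each mouse, and mean methylation in percent of windows unmethylated in saline lung by whether a neighbouring window is methylated. In windows of at least 60% GC the DSE mice have 13.5 to 15.1 scaled calls per window and the OVA mice 16.4 to 18.3, and the DSE mice lie above the OVA mice in the edge windows.

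Only 23 promoters were lower in DSE, and Itgax was the 1 member of an immune list among them. Its start site window (position 128129550 of chromosome 7, exon 1) had 92.3%, 91.0% and 93.1% in the OVA mice, 76.2%, 77.5%, 82.5% and 82.4% in the DSE mice and 90.3%, 85.4% and 72.2% in the saline mice. The DSE mice were all below the OVA mice, while the saline mice ranged from below the DSE mice to near the OVA mice. The fall of 12.5 points, or -1.47 ± 0.26 on the M scale, had a limma adjusted p of 0.00835 and rested on 108 to 199 calls per mouse. The call held without each of the 7 mice in turn, and no other promoter of the macrophage list passed the test.

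The remaining falls were mostly in flanking windows that were methylated in OVA lung. Nsfl1c, the p47 cofactor of the ATPase p97, was lower in DSE, with 28.4% to 30.9% in the OVA mice and 19.4%, 20.7%, 18.6% and 20.9% in the DSE mice (limma adjusted p = 0.00103), with 60.6%, 55.6% and 58.7% against 37.3%, 40.1%, 35.9% and 40.9% in the upstream window and overlapping groups over the start site. Cript, a protein that binds the scaffold PSD-95, fell from 43.2%, 39.7% and 40.4% to 23.1%, 27.8%, 21.4% and 33.1%. Phgdh, the first enzyme of serine synthesis from glucose, fell from 20.04%, 19.06% and 20.5% to 11.02%, 13.7%, 10.1% and 15.2%.

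Atg7, the enzyme that activates the ubiquitin-like proteins of autophagy, went from 25.2%, 24.9% and 27.9% in OVA to 16.3%, 20.4%, 13.5% and 18.5% in DSE. Nipa1, a magnesium transporter, went from 39.3%, 37.4% and 35.2% to 28.8%, 30.3%, 26.3% and 31.6%. The promoter shared by Mipol1 and Prps1l3 fell by 13.2 points, and those of Gm15473, AU016765, Slc22a26 (an organic anion transporter) and Rrh (a retinal opsin-like protein) by 8.01, 11.5, 9.59 and 6.61 points. The medians over the 23 were 26.0% in OVA and 19.2% in DSE, and the median difference was -8.01 points. The saline mean lay between the other 2 group means in 19 of them, against 5457 of all 17638 promoters. Without OVA replicate 3, DSE replicate 1 or DSE replicate 3 the falls numbered 15, 15 and 13, and some named falls rested on single mice. Cript lost its call without OVA replicate 1, Phgdh and Atg7 without OVA replicate 1, OVA replicate 3 or DSE replicate 1, and AU016765 without OVA replicate 1, OVA replicate 3 or DSE replicate 2. Slc22a26 kept its call only without OVA replicate 3, DSE replicate 2 or DSE replicate 4, Nipa1 only without OVA replicate 3 or DSE replicate 4, and Rrh only without OVA replicate 2. Where calls of both windows were pooled, so that the deeper island window weighed more, the difference turned upward in 15 of the 23 and only 4 remained called. Among the rises 1107 kept their direction under pooling and 1047 their call. Other settings kept fewer of the 1110 rises. In the windows that hold the start site 540 kept their call and 82 turned downward. With all overlapping windows 685 kept their call and 24 turned downward, and on the percent scale 572 kept it. Of the falls 1 kept its call in the start-site windows and 14 turned upward.

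The promoters of genes of allergic inflammation held almost none of the promoter calls. In the T helper, eosinophil and mast cell, chemokine, cytokine receptor, glucocorticoid and leukotriene lists, 139 promoters in all, 0 passed limma at an adjusted p under 0.05, against 6.29% higher over all promoters, and in the macrophage list Itgax alone did. At an unadjusted p under 0.05 there were 17 of the 139, against 3363 of 17638 over all promoters. By edgeR on pooled calls 7 were called, against 2678 higher over all. The lists were not matched to promoters of like methylation. Over the OVA mice eosinophil and mast cell promoters averaged 41.6% to 44.1%, T helper 24.7% to 25.6%, chemokine 23.4% to 26.8% and leukotriene 22.5% to 24.0%. Cytokine receptor promoters averaged 18.2% to 18.4%, glucocorticoid 16.6% to 16.7% and all promoters 17.2% to 17.9%. The median difference was 0.248 points over 20 T helper genes and -1.65 over 15 eosinophil and mast cell genes. It was 0.303 over 22 chemokine genes, 0.457 over 48 cytokine receptor genes, 0.340 over 19 glucocorticoid genes, 0.518 over 24 leukotriene and prostaglandin genes and -0.109 over 13 macrophage genes. Il4 and Il5, the cytokines of T helper 2 cells, had group means of 69.3% and 75.8% in OVA and 70.1% and 76.3% in DSE.

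Counted over all windows at and within these genes, by the logistic test on pooled calls (adjusted p under 0.01 and at least 10 points), the lists held both higher and lower shares. Windows of all genes were called hyper methylated in 0.842% of cases and hypo methylated in 0.621%. The chemokine list had 5 of 187 hyper methylated (2.67%) and none hypo methylated, and the T helper list 5 of 338 (1.48%) and none. The eosinophil and mast cell list had none hyper methylated and 3 of 171 hypo methylated (1.75%), and the cytokine receptor list 7 of 679 (1.03%) in each direction. Limma also called 1 of the T helper windows, 2 of the cytokine receptor windows and 0 of the chemokine and eosinophil windows.

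In the T helper list the smallest p-values were those of Crlf2, Ifng and Batf, none of which passed the threshold. Crlf2, the receptor for TSLP, had 3.83%, 8.77% and 4.30% in OVA and 11.7%, 6.57%, 17.7% and 10.6% in DSE (limma adjusted p = 0.113). Ifng, the T helper 1 cytokine, had 87.0%, 68.9% and 61.5% and 84.2%, 88.2%, 86.8% and 81.5% (limma adjusted p = 0.280). Batf, a transcription factor of T helper differentiation, had 16.8%, 16.4% and 12.6% and 21.9%, 15.2%, 23.7% and 17.4%. In all 3 promoters the OVA and DSE mice overlapped, and the window of Ifng had as few as 23 calls in a mouse.

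In the cytokine receptor list the smallest p-value was that of Il1rap. Il1rap, the shared subunit of the receptors for interleukin 1 and interleukin 33, had 20.6%, 21.4% and 23.6% against 26.1%, 28.6%, 28.6% and 25.5% (limma adjusted p = 0.0636), without overlap. Ifnar2, a type I interferon receptor subunit, differed by 0.453 points. Among the chemokines Cxcl2, Cxcl1 and Cxcl10 differed by 8.22, 3.85 and 2.00 points, with limma adjusted p-values of 0.0842, 0.0947 and 0.0933.

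Apart from Itgax, the eosinophil, macrophage and eicosanoid genes named here did not pass the test. Siglecf, the eosinophil and alveolar macrophage lectin, had 53.7%, 54.7% and 50.6% in OVA and 49.5%, 46.6%, 45.1% and 41.8% in DSE (limma adjusted p = 0.178). Il5ra, the receptor for the eosinophil growth factor interleukin 5, differed by 4.35 points and Alox5, the first enzyme of leukotriene synthesis, by 0.888, both short of the threshold. Cd14 of macrophages differed by 0.380 points (limma adjusted p = 0.146). Among the eicosanoid genes Lta4h, Alox12 and Pla2g4a differed by -1.68, 1.73 and 3.10 points.

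Marker genes of leukocytes, alveolar type 2 cells and airway epithelium averaged overlapping values in the OVA and DSE mice. Promoters of 23 pan-leukocyte markers, genes active in all white blood cells, averaged 33.4% to 38.5% over the OVA mice and 33.4% to 37.2% over the DSE mice, against 44.4% to 47.6% over the saline mice. Both asthma-model groups lay below the saline mice and overlapped each other, and 0 of the 23 passed limma, at an unadjusted p under 0.05 as well, or edgeR. In the alveolar type 2 list, where Fasn, Etv5 and Lpcat1 had the smallest p-values, the ranges of the mice's means were 19.7% to 21.5% in OVA and 19.5% to 23.2% in DSE. In the club, ciliated and goblet cell list, led by Ccdc39, Tuba1a and Foxa3, they were 17.8% to 21.4% and 19.5% to 21.2%. Glucocorticoid-related genes differed by 0.910 points at Hsd11b2, which inactivates cortisol-like steroids (limma adjusted p = 0.0566), 0.720 at Mt1 and 0.451 at Nr3c2.

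Rises were found in several other lists. In the NF-kappaB and innate signalling list 5 of 38 promoters rose (13.2%, against 6.29% over all promoters) and none fell. Nfkbiz, which encodes the nuclear inhibitor-like regulator IkBzeta, had 2.17%, 2.18% and 2.19% in OVA and 7.81%, 5.54%, 7.12% and 5.11% in DSE (limma adjusted p = 0.00130). Chuk, the kinase IKKalpha, had 5.97%, 9.58% and 8.16% and 13.6%, 13.7%, 16.5% and 13.0% (limma adjusted p = 0.00627). In both genes the groups did not overlap.

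Bcl10, an adaptor between antigen receptors and NF-kappaB, had 1.61%, 1.81% and 2.68% in OVA and 4.91%, 5.57%, 7.07% and 3.10% in DSE, a rise that lay wholly in the upstream window (2.51%, 2.72% and 4.55% against 9.03%, 10.3%, 13.2% and 5.69%). Traf6, a ubiquitin ligase downstream of Toll-like and interleukin 1 receptors, rose by 0.915 points and Relb, a subunit of the alternative pathway, by 1.45, with limma adjusted p-values of 0.0419 and 0.0449. Nfkbiz and Chuk kept their calls without each mouse in turn. Bcl10 lost its call without OVA replicate 1, OVA replicate 2 or DSE replicate 2, Traf6 kept it only without OVA replicate 2 or DSE replicate 4, and Relb only without DSE replicate 4. The list had 2 rises without OVA replicate 1 or DSE replicate 2 and 3 without OVA replicate 2, OVA replicate 3, DSE replicate 1 or DSE replicate 3.

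The DNA methylation enzymes and readers had 3 rises among 22 promoters (13.6%, against 6.29% over all promoters). Tet1, a dioxygenase that starts demethylation, had 7.09%, 9.43% and 8.68% in OVA and 12.1%, 12.7%, 14.4% and 12.2% in DSE (limma adjusted p = 0.0124). Mbd4, a glycosylase that repairs mismatches at methylated CpGs, had 4.15%, 6.71% and 3.77% and 9.63%, 8.43%, 8.93% and 8.18% (limma adjusted p = 0.0142), and its start-site windows differed by -0.153 points. Dnmt3a, the de novo methyltransferase, had at most 2.30% in the OVA mice and 6.98%, 17.2%, 4.17% and 9.38% in the DSE mice, in 1 window with as few as 29 and at most 174 calls over 94 CpGs. Tet1 lost its call without OVA replicate 1, Mbd4 without OVA replicate 1 or OVA replicate 3, and Dnmt3a without OVA replicate 2, OVA replicate 3, DSE replicate 1 or DSE replicate 2. The list had 1 rise without OVA replicate 1 or OVA replicate 3 and 2 without DSE replicate 1 or DSE replicate 2. Whether a list stood apart from all promoters was not tested.

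Zinc finger genes named Zfp rose in 31 of 377 promoters (8.22%, near the 6.29% over all promoters), and none fell. Many genes of this name encode KRAB zinc finger proteins, DNA-binding repressors. The 6 with the smallest p-values were Zfp418, Zfp617, Zfp105, Zfp709, Zfp58 and Zfp54. Zfp418 had 1.204%, 1.73% and 0.734% in OVA and 4.87%, 4.78%, 4.95% and 4.31% in DSE (limma adjusted p = 0.00116), and Zfp617 had 1.497%, 2.14% and 1.77% and 7.75%, 4.72%, 8.09% and 5.27%. These 6 kept their calls without each mouse in turn, while the count of 31 went to 12 without OVA replicate 1, 18 without DSE replicate 2 and 19 without DSE replicate 3. Over all promoters 3.19%, 4.17% and 3.96% rose in the same 3 fits.

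The other lists held at most 2 rises each, to be read beside the 6.29% over all promoters. The Nrf2 list had 1 of 28 (3.57%), integrins 1 of 25 (4%) and alveolar type 1 markers 1 of 12 (8.33%). Protocadherins and Wnt, Notch and hedgehog genes had 2 of 57 each (3.51%). Imprinted genes had 1 of 38 (2.63%), germline genes 1 of 31 (3.23%) and ion channels 1 of 120 (0.833%). Over the 32 lists 50 of 1313 promoters were called in either direction, against 1133 of all 17638. Txnrd1, the thioredoxin reductase of the Nrf2 response, rose from 9.68%, 9.01% and 7.88% to 14.1%, 13.5%, 11.8% and 12.9%. Itgav, the integrin subunit that activates latent TGF-beta, rose from 2.21%, 4.57% and 2.14% to 11.5%, 11.2%, 14.3% and 7.02%. Fzd4, a Wnt receptor, rose from 6.26%, 7.55% and 7.27% to 11.1%, 12.2%, 13.1% and 9.30%. Each of these 3 was without overlap between the groups and kept its call without each mouse in turn.

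Akap5, Dll3, Commd1 and Kcnk4 rose by 6.04, 2.68, 1.99 and 2.76 points, and the protocadherins Pcdhga1 and Pcdhga2 by 8.95 and 6.57. Tdrd1, a germline gene of the piRNA pathway that is silenced by methylation in somatic tissue, rose at its start site from 64.1%, 57.7% and 59.7% to 72.2%, 69.1%, 70.7% and 71.2% (limma adjusted p = 0.0105), in a window of 54 CpGs. Commd1 and Tdrd1 kept their calls without each mouse in turn. Akap5 and Kcnk4 kept theirs only without OVA replicate 2 or DSE replicate 4, Pcdhga1 only without DSE replicate 4, and Dll3 and Pcdhga2 lost theirs whichever mouse was left out. In the windows that hold the start site of Kcnk4 the difference was -4.29 points. No promoter of the Hox, collagen, endothelial, smooth muscle, T cell, B cell, neutrophil, cytotoxic, cyclic nucleotide, developmental transcription factor, olfactory receptor, pan-leukocyte, alveolar type 2 or club, ciliated and goblet cell lists passed limma, 0 of 371, with 30 at an unadjusted p under 0.05 and 4 called by edgeR. Of all 17638 promoters limma called 6.29% higher, 3363 had an unadjusted p under 0.05 and edgeR called 2678 higher. The level of methylation differed between these lists. Over the OVA mice olfactory receptor promoters averaged 69.4% to 71.1%, T cell promoters 49.7% to 53.1% and those of developmental transcription factors 4.88% to 5.36%.

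**Figure D4:**
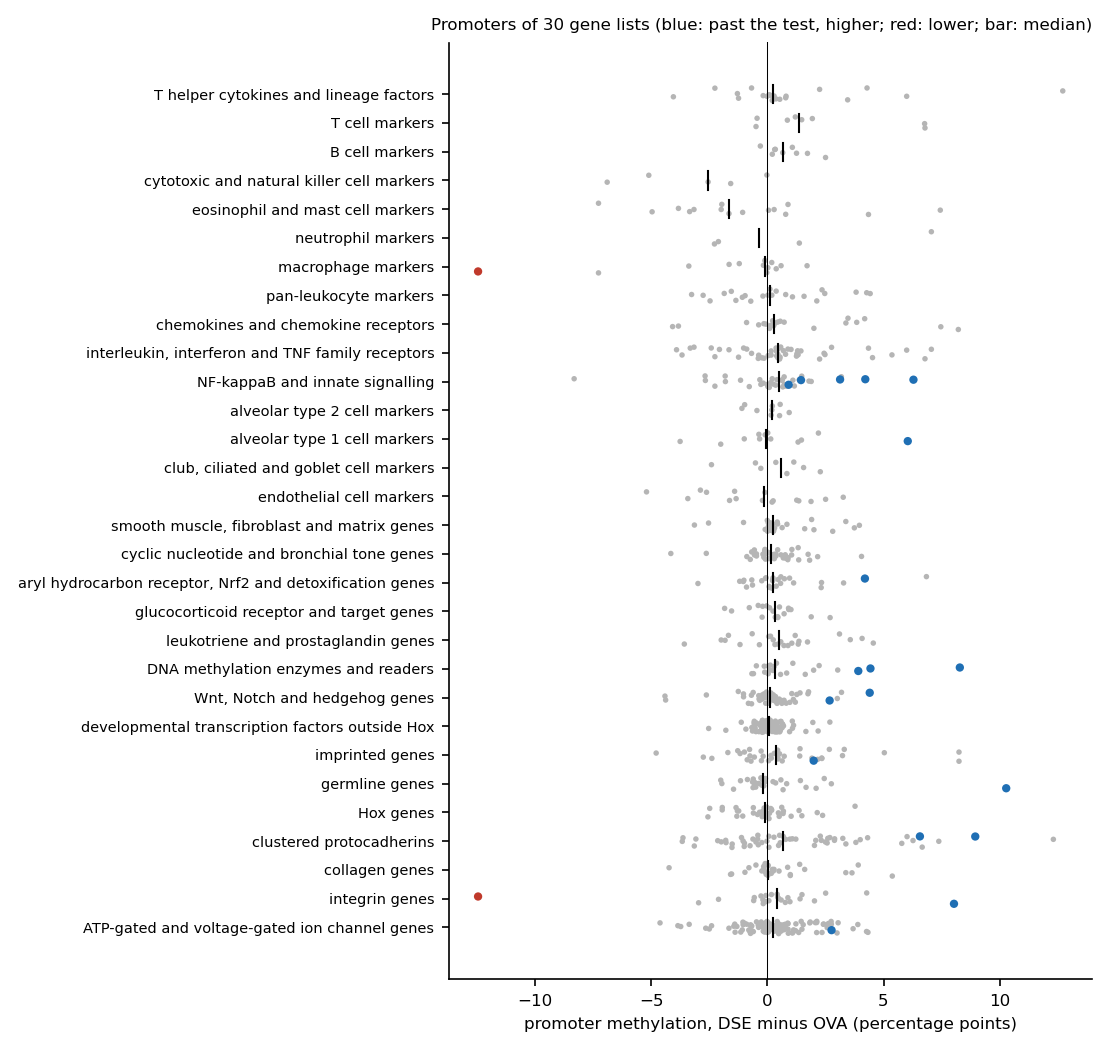
DSE minus OVA difference in promoter methylation, in percentage points, for each promoter of 30 gene lists, the Zfp and olfactory receptor lists left aside. A bar marks the median of each list. Promoters past the limma threshold are blue if higher in DSE and red if lower, and the others are grey. The NF-kappaB list holds 5 blue points and the DNA methylation list 3, and the lists of T helper, chemokine and eosinophil genes hold none.

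Mean gene body methylation overlapped between the groups, and far fewer gene bodies than promoters were called. The mean was 58.3%, 59.1% and 59.2% in the OVA mice and 57.9%, 59.2%, 58.6% and 58.8% in the DSE mice. The means of 58.9% ± 0.489 (SD, n = 3) and 58.6% ± 0.558 (n = 4) differed by -0.250 points (exact two-sided permutation test, p = 0.629), and the saline mice had 57.9%, 57.2% and 57.5%. The median gene body differed by -0.240 points. Limma called 5 of 10239 gene bodies higher (0.0488%) and 4 lower (0.0391%), with 855 at an unadjusted p under 0.05. Every DSE mouse was above every OVA mouse in 315 (3.08%) and below in 548 (5.35%), and 0 of the 758 bodies of the 32 gene lists were called, with 66 at an unadjusted p under 0.05 and 60 higher and 33 lower by edgeR on pooled calls, against 810 and 485 over all bodies.

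Arrdc3, an arrestin that controls the turnover of beta-adrenergic receptors, the targets of bronchodilators, had the clearest rise in the gene body. Its values were 4.99%, 6.41% and 4.81% in the OVA mice and 11.3%, 10.9%, 11.7% and 10.0% in the DSE mice, without overlap (limma adjusted p = 6.94e-04), and it was the only gene body that kept its call without each mouse in turn. Snx13, a sorting nexin, rose from 36.8%, 37.4% and 34.6% to 45.4%, 49.1%, 50.9% and 46.9%, and Ogfod1, which hydroxylates a ribosomal protein, rose from 63.4%, 66.8% and 63.4% to 72.5%, 73.9%, 76.4% and 73.9%. The gene bodies of 2700069I18Rik and 1700012B09Rik rose by 4.68 and 12.3 points.

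Among the falls, Lyrm4, which serves iron-sulfur cluster assembly in mitochondria, fell from 78.1%, 76.6% and 78.2% to 72.1%, 72.6%, 72.4% and 72.5% over 11 windows (limma adjusted p = 0.0449). Ncl, the nucleolar protein nucleolin, fell from 64.4%, 70.4% and 68.6% to 56.2%, 56.6%, 57.9% and 57.1%. Aph1c, a subunit of gamma-secretase, and Cep76, a centrosomal protein, fell by 10.2 and 6.35 points. The groups did not overlap in any of the 4. The number of bodies called higher was 1 without OVA replicate 2, 2 without OVA replicate 1, DSE replicate 2 or DSE replicate 3, and 3 without OVA replicate 3 or DSE replicate 4. Of the other 8 gene bodies, 2700069I18Rik lost its call only without OVA replicate 2, Snx13, Cep76 and Ncl kept theirs only without DSE replicate 1, DSE replicate 2 and OVA replicate 1 in that order, 1700012B09Rik and Aph1c only without DSE replicate 4, and Ogfod1 and Lyrm4 lost theirs whichever mouse was left out. The number called lower was 0 or 1 without each mouse but OVA replicate 1, without which it was 3.

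Below the threshold, the next gene bodies by p-value were Purb, Kif3a and Hipk3 upward and Tnc, Tdrd1, Zfp988 and Zfp808 downward. Tnc, the matrix protein tenascin C of tissue repair, had 86.0%, 85.4% and 84.4% in OVA and 75.9%, 80.3%, 80.7% and 79.7% in DSE (limma adjusted p = 0.0523). Kif3a, a motor of ciliary transport, had 67.8%, 66.8% and 67.7% and 71.2%, 72.1%, 71.2% and 71.3% (limma adjusted p = 0.0523). Purb, a repressor of smooth muscle actin, differed by 4.05 points and Tdrd1 by -4.01, the latter opposite in sign to its promoter.

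**Figure D5:**
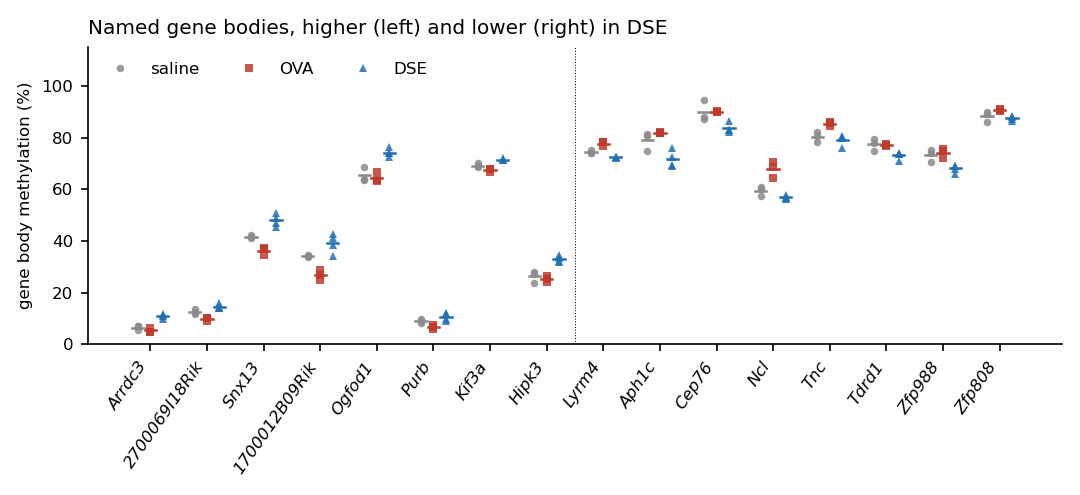
Gene body methylation in percent for each mouse at the named gene bodies, with points for saline, OVA and DSE mice. Arrdc3 lies between 4.81% and 6.41% in the OVA mice and between 10.0% and 11.7% in the DSE mice.

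Window by window, the logistic test on pooled calls with the settings of the study's own methods (adjusted p under 0.01 and at least 10 points) called 3781 windows hyper methylated (0.891%) and 2987 hypo methylated (0.704%) in DSE. The mice of the 2 groups did not overlap in 79.3% of the hyper methylated windows, with every DSE mouse above every OVA mouse in 5.65% of all windows tested. For the hypo methylated windows the share was 72.8%, with every DSE mouse below in 4.59% of all. Limma on M-values, which takes the spread between mice into account, also called 989 of the hyper methylated windows (0.233% of all windows) and 299 of the hypo methylated ones (0.0704%). Merging windows that touch gave 3006 hyper methylated runs, 2249 of them single windows, and 2288 hypo methylated runs, 1605 of them single. Only 18 and 16 runs held 3 or more windows, and the longest covered 2500 bp.

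The run at Mad2l1 holds the upstream window in which the Mad2l1 promoter rose, so both rest in part on the same calls. It lay upstream of the start site at chr6:66532501-66535000, outside any gene, with means over its 3 windows of 2.05%, 0.626% and 5.04% in OVA and 28.5%, 18.1%, 30.2% and 23.1% in DSE. All 3 windows passed limma, with a smallest adjusted p of 0.00437. A second run upstream of a start site, chr8:25597501-25600000 near Letm2, a mitochondrial inner membrane protein gene, had 21.1%, 15.01% and 23.0% and 42.8%, 29.3%, 38.2% and 31.4%, and no window of it passed limma. Other hyper methylated runs lay far from genes, such as chr6:50938501-50941000, 33344 bp from Gm31579, where OVA mice had 25.1%, 41.6% and 37.1% and DSE mice 66.95%, 59.0%, 66.5% and 57.0%, or inside Rad9b (exon 5) and Ankrd45 (exon 8).

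Hypo methylated runs were found in introns and exons as well as far from genes. In intron 1 of Osgin2, chr4:16011501-16013500 had 59.2%, 55.8% and 71.9% in the OVA mice and 37.3%, 41.8%, 44.4% and 44.1% in the DSE mice. The Osgin2 promoter next to it was higher in DSE, at 7.30% against 3.37% (limma adjusted p = 0.0132). In Tub, a run over exons 9 and 10 (chr7:109027501-109029500) had 60.1%, 47.5% and 50.8% and 38.1%, 34.7%, 33.0% and 39.8%. The largest fall among the named runs was in Nt5c2, the cytosolic purine 5'-nucleotidase, where a run of 2 windows over exons 8 and 9 (chr19:46896501-46898000) had 100%, 77.8% and 85.1% in OVA and 34.6%, 32.7%, 23.9% and 48.9% in DSE. The groups did not overlap, at 24 to 192 calls a mouse, with a smallest limma adjusted p of 0.0431. An intergenic run whose nearest start site was that of Pex2, chr3:5859501-5861500, had 65.4%, 72.9% and 59.5% and 39.5%, 52.2%, 40.4% and 46.9%, and others lay near Rps20, Pfkp and Speer4d.

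Among 15389 windows of the genes of 30 lists, the Zfp and olfactory receptor lists left aside, 22 hyper methylated (0.143%) and 6 hypo methylated windows (0.039%) in 23 genes were called by both the logistic test and limma with mice that did not overlap. Over all windows 0.233% and 0.0704% met the same rule, and in the Zfp list 7 and 4 of 3879 windows (0.18% and 0.103%). The windows named here were chosen for their values and are described without a further test. At the promoter of Il1rap, 2 overlapping windows met it, and chr16:26580501-26581500 had 17.3%, 24.96% and 16.4% in OVA and 34.5%, 34.7%, 33.7% and 31.0% in DSE. In intron 2 of Ptger4, which encodes the prostaglandin receptor EP4, chr15:5236001-5237000 had 12.3%, 19.2% and 13.2% and 35.3%, 26.6%, 33.8% and 30.9%. In intron 14 of Stat4, a transcription factor of T helper 1 cells, chr1:52086001-52087000 had 26.7%, 14.6% and 17.5% and 34.9%, 43.7%, 42.8% and 42.6%.

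Genes of inflammation control and detoxification held others. Tnip1, an inhibitor of NF-kappaB signalling, had 16.7%, 21.5% and 23.4% in OVA and 43.2%, 38.2%, 41.7% and 35.9% in DSE at chr11:54956001-54957000 in exon 2. Ephx1, the microsomal epoxide hydrolase, had 14.3%, 19.8% and 9.52% and 60.4%, 45.1%, 53.7% and 54.9% in intron 1 at chr1:181009001-181010000, on at most 212 calls a mouse. In both windows the DSE mice stood well above the OVA mice.

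Genes of airway tone and structure were called in either direction. In exon 9 of Acta2, the smooth muscle actin, chr19:34241001-34242000 fell from 73.6%, 74.9% and 76.9% to 54.1%, 61.1%, 50.6% and 55.9%. Adcy9, an adenylyl cyclase, fell from 64.8%, 61.2% and 67.5% to 52.6%, 50.1%, 52.9% and 50.8% in intron 2, while Pde4d, the phosphodiesterase that degrades its product, rose from 6.21%, 7.33% and 8.59% to 20.5%, 18.0%, 17.0% and 15.4% in intron 3. Col4a5, a basement membrane collagen, rose from 12.4%, 18.3% and 11.9% to 46.1%, 41.7%, 31.5% and 36.6% in exon 18. Every one of these windows lay within the gene and not at its promoter.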

How the data were processed

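The deposited table holds, for each mouse and each 1000-bp window, counts of methylated and unmethylated cytosine calls. Per the submitters' processing notes the authors' tools were cutadapt 1.10, Bismark 0.19.0 and methylKit 1.0.0 on the mm10 build, while the study's methods name other versions. The samples labelled Herb are the DSE mice of the study. The labels name separate mice, and p-values of limma, edgeR and the exact permutation tests measure the spread between these 7 mice. Those of the logistic test on pooled calls do not.

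Windows needed at least 20 calls in all 7 mice, and 793 of the windows kept had fewer than 2 CpGs in the reference. A promoter was the unweighted mean percent of non-overlapping windows whose midpoint lay within 1000 bp of the RefSeq start site, and a gene body that of at least 3 windows further downstream. Both were tested with limma 3.58.1 (R 4.3.3) on M = log2((percent + 1)/(100 - percent + 1)), with a prior variance trended on calls and Benjamini-Hochberg adjustment over all genes tested. Windows were tested by a logistic likelihood ratio test on pooled calls (scipy 1.17.1), which treats calls as independent. Means per mouse were compared by exact two-sided permutation tests. The logistic test of windows and the limma fits of promoters and gene bodies were tested on simulated data.

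The members and gene lists were chosen with earlier results of these data known. Named were the 12 promoters per direction with the smallest limma p among those that did not overlap and differed by at least 5 points, likewise up to 8 gene bodies with at least 2 points, the 8 longest runs of windows per direction, and list members past the threshold or of smallest p. Of the called Zfp promoters only 6 were named, and members without a call were named for a part of the lists only. Alternatives were pooled or overlapping windows, start-site windows, other call minimums, the percent scale, edgeR 4.0.16, a replicate block, and each mouse left out. Alternatives chosen after seeing the data were the depth of GC-rich windows as a covariate, promoters whose share of calls was not lower in DSE, and windows of at least 2 CpGs.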

Additional observations from a re-analysis of the deposited data

Results flagged for a closer look

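In 7 of 106 named values tested, 1 of the 4 DSE mice stood apart from the other 3 by more than Dixon's critical value for 4 samples, and chance alone gives about 5%. The lowest DSE mouse stood apart at the promoters of Mad2l1, a spindle checkpoint gene (13.0%, nearest mouse 15.8%), Fasn, the fatty acid synthase (1.88%, nearest 3.11%), and Kcnk4, a potassium channel (5.81%, nearest 7.21%), and in the gene body of Tdrd1 (71.1%, nearest 73.7%). The highest DSE mouse stood apart at the promoters of Lpcat1, an enzyme of surfactant lipid synthesis (1.40%, nearest 1.24%), and Foxa3, an airway transcription factor (15.2%, nearest 13.6%), and in the gene body of Kif3a (72.1%, nearest 71.3%). At Mad2l1 the lowest DSE mouse was still above every OVA mouse.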

How the results depend on the processing

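The direction of the promoter difference held in every count that made calls, and its size moved with the weighting of windows. Promoters higher in DSE numbered 2759 with pooled calls, 2678 with edgeR on the same calls, 644 on the percent scale (35 lower), 455 of 3950 among promoters whose share of calls was not lower in DSE, and 562 to 1137 with 1 mouse left out (13 to 26 lower). The windows that hold the start site gave 11 lower. With the depth of GC-rich windows as a covariate 0 promoters were called in either direction by limma, with 1051 at an unadjusted p under 0.05. Gene bodies higher and lower numbered 807 and 499 with pooled calls, 810 and 485 with edgeR, 9 and 7 with overlapping windows, 1 and 1 with all deposited windows, 1 and 0 on the percent scale, 7 lower with one prior variance, 1 to 6 and 0 to 3 with 1 mouse left out, and 0 and 0 with the covariate, where 652 had an unadjusted p under 0.05. The cause was not tested. Windows hyper and hypo methylated numbered 989 and 299 with limma, 1714 and 643 with edgeR, 516 and 342 at 20 points, 1910 and 1441 without overlapping windows, 409 and 63 with limma and a replicate block, and 0 and 0 in an F test with the spread between mice, with 31071 at an unadjusted p under 0.05.

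Same-numbered OVA and DSE mice deviated together with r of 0.0411, 0.00813 and 0.0125 over promoters, so the numbers were not taken to pair them. The replicate block gave 996 promoters higher and 20 lower, and 2 and 0 gene bodies. Of the 57 named genes called, 44 were called with the block, 43 with pooled calls or edgeR, 36 on the percent scale, 20 of 47 in start-site windows, 0 with the covariate and 34 to 49 with 1 mouse left out.

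Among named genes some differences changed sign. In start-site windows they were -0.0349 points at Bod1, -0.00821 at Btbd10, 0.404 at Nsfl1c, 1.30 at Gm15473, 3.67 at Mipol1 and Prps1l3, 0.501 at Phgdh, 0.361 at Atg7, 3.82 at Nipa1, -0.189 at Cd14, -0.0488 at Bcl10, 0.227 at Etv5, -0.0431 at Lpcat1, 0.0389 at Lta4h, -0.153 at Mbd4 and -4.29 at Kcnk4. With pooled calls they were 0.556 at Nsfl1c, 1.21 at Gm15473, 2.74 at Mipol1 and Prps1l3, 0.886 at Cript, 0.293 at Phgdh, 0.859 at Atg7, 3.35 at Nipa1, -0.0343 at Lpcat1 and 0.170 at Lta4h, and edgeR's log2 odds were 0.21, 0.41, 1.24, 0.23, 0.13, 0.40, 0.37, -0.0705 and 0.0572 in that order. With at least 50 calls Mipol1 and Prps1l3 stood at 0.752 points, and with overlapping windows Cd14 at -0.0527 and Kcnk4 at -2.55. With the covariate the M-scale difference was -0.24 at Alox5, -0.16 at Bcl10, -0.00679 at Relb, -0.28 at Tuba1a, -0.082 at Foxa3 and 0.081 at Lta4h, and with 1 mouse left out Lpcat1 ranged from -0.0849 points without OVA replicate 3 to 0.505. The mean of gene bodies differed by 0.158 points with pooled calls, and by -0.530 to 0.00239 with 1 mouse left out, the latter without DSE replicate 1.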

Other observations

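Promoter rises were also counted in gene families that were chosen after values had been seen and that carry no test, each read beside the 6.29% over all promoters. Mediator, the complex that links transcription factors to RNA polymerase, had 7 rises among 30 promoters (23.3%), at Med4, Med6, Med7, Med9, Med11, Med13 and Med23. Med4 had 8.89%, 10.9% and 8.37% in the OVA mice and 15.7%, 15.2%, 16.1% and 11.8% in the DSE mice (limma adjusted p = 0.0180), and Med7 had 0.534%, 0.997% and 0.705% and 2.28%, 2.93%, 2.25% and 2.00%. Both had DSE values above every OVA value. Proteasome subunits had 8 rises among 48 (16.7%), led by the activator Psme4, which had 1.86%, 4.33% and 3.77% and 12.2%, 9.58%, 12.8% and 7.04%. Histone genes had 9 among 64 (14.1%), all on chromosome 13, where 9.45% of all promoters rose. Of these 9, H2ac6 and H2bc4 shared their windows and so had the same values. The rise at H2bc9 was from 10.2%, 10.4% and 4.89% to 26.1%, 16.6%, 24.5% and 16.7%.

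Translation initiation factors rose at 7 of 55 promoters (12.7%), ubiquitin-conjugating enzymes at 4 of 31 (12.9%), NADH dehydrogenase subunits at 4 of 37 (10.8%), mitochondrial ribosomal proteins at 8 of 75 (10.7%) and RNA helicases at 5 of 52 (9.62%). Shares below that of all promoters were counted in solute carriers, with 12 of 278 (4.32%), cytosolic ribosomal proteins, with 3 of 80 (3.75%), spliceosomal proteins, with 1 of 34 (2.94%), and cytochrome P450 enzymes, with 1 of 44 (2.27%). Among the cytosolic ribosomal proteins Rpl21 had 5.04%, 7.13% and 5.03% in OVA and 16.8%, 15.6%, 15.2% and 14.3% in DSE (limma adjusted p = 5.34e-04).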
